A study of Mus musculus with 16 samples.

Results

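Macrophage migration inhibitory factor (MIF), its paralog D-dopachrome tautomerase and the receptors through which MIF acts were followed in diseased arteries of mice with and without the Mif gene. The 7 genes, Mif, Ddt, Cd74, Cd44, Cxcr2, Cxcr4 and Ackr3, were chosen by symbol because MIF biology links their products, and all 7 were among the 55358 named rows of the deposited count table. The samples were 16 RNA-seq libraries, 1 per mouse, made from 3 to 4 pooled brachiocephalic sections, an artery that leaves the aortic arch and where hyperlipidaemic mice form plaques. Cells of all kinds in the sections were measured together.

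All mice were female and all lacked Apoe, so no animal had a normal lipid metabolism. The 4 groups of 4 mice were Apoe-/- and Apoe-/-Mif-/- mice fed a Western-type diet (0.2% cholesterol, 21.2% fat) for 24 or 42 weeks, starting at 6 weeks of age. Time on diet therefore cannot be told apart from age. Which part of Mif was removed in the mutant line is not given in the sources used here. The column names read as plate positions, and row C held all 4 libraries of the Apoe-/-Mif-/- mice at 24 weeks, row B the remaining 12. For those 4 libraries, row and group cannot be told apart.

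MIF is a cytokine that most cell types store and release, and it acts on leukocytes in inflamed arteries much as a chemokine does. It binds CD74, the invariant chain of MHC class II molecules, whose surface form signals together with CD44, and it also engages the chemokine receptors CXCR2 and CXCR4 and the atypical receptor ACKR3. D-dopachrome tautomerase, also called MIF-2, folds like MIF and shares CD74 with it. In mouse models of atherosclerosis MIF is known as a factor that promotes lesions.

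The first coding bases of Mif, Ddt and a processed Mif pseudogene are shown because read counts can depend on how well such copies are told apart. Whether the Mif counts of the mutant did so was not tested. The pseudogene printed, Mif-ps3, had 0 counts in both groups of Apoe-/-Mif-/- mice. They come from GENCODE M21 transcripts on GRCm38, read 5′ to 3′ from the start codon or its counterpart. Capitals mark bases that differ from Mif or have no counterpart there in a pairwise alignment.

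Mif: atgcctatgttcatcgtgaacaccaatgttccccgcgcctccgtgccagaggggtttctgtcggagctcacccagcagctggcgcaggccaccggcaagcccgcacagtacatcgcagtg

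Ddt: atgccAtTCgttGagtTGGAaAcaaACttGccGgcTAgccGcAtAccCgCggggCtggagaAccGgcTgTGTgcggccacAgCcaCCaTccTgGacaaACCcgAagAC

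Mif-ps3: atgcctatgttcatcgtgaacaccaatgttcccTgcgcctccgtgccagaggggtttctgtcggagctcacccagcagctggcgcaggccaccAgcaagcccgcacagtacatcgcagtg

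The pseudogene was much closer to Mif in sequence than Ddt was. Over 325 aligned bases of the Mif and Ddt coding sequences (348 and 357 bases), 60% were identical, and the longest shared run was 10 bases. Mif-ps3 was 96.5% identical to Mif over 345 aligned bases and shared a run of 59 bases. None of the 445 windows of 100 bases, the read length, in the 544-base Mif transcript occurred exactly in Ddt, Mif-ps3 or Mif-ps7, a further copy that was 92% identical over 323 bases. Mif-ps9 and Mif-ps10 had no sequence in that transcript set.

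Levels are given as CPM, counts scaled to a common library size by the total and a trimmed-mean (TMM) factor. Total counts per library ran from 378066 (Apoe-/- at 42 weeks, library 1) to 8649518, so the value of a single read differed widely between libraries. Libraries are numbered in accession order, and the numbers pair nothing across groups. Differences across all genes were tested with edgeR's quasi-likelihood test on 10634 genes that passed a filter on low counts, and a gene passed where its p, adjusted by the Benjamini-Hochberg method, was under 0.05. The markers of smooth muscle, endothelium, macrophages and fibroblasts were all detected, with summed levels of 692 to 16939, 76.8 to 3781, 1027 to 14728 and 2263 to 25813 CPM. White and brown adipocyte markers ranged from 2.62 to 6649 and from 26.1 to 13611 CPM.

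Per kilobase of the longest coding transcript, Cd74 had the highest mean level over the 16 libraries (217 CPM per kb), followed by Mif (149), Ddt (35.4), Ackr3 (21.1), Cd44 (19.9), Cxcr4 (2.31) and Cxcr2 (0.358). In Apoe-/- arteries Mif itself led on this scale, at 260 and 294 CPM per kb after 24 and 42 weeks against 133 and 217 for Cd74. Of the 7 genes, 5 passed the count filter, and Cxcr2 and Cxcr4 did not.

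**Figure D1:**
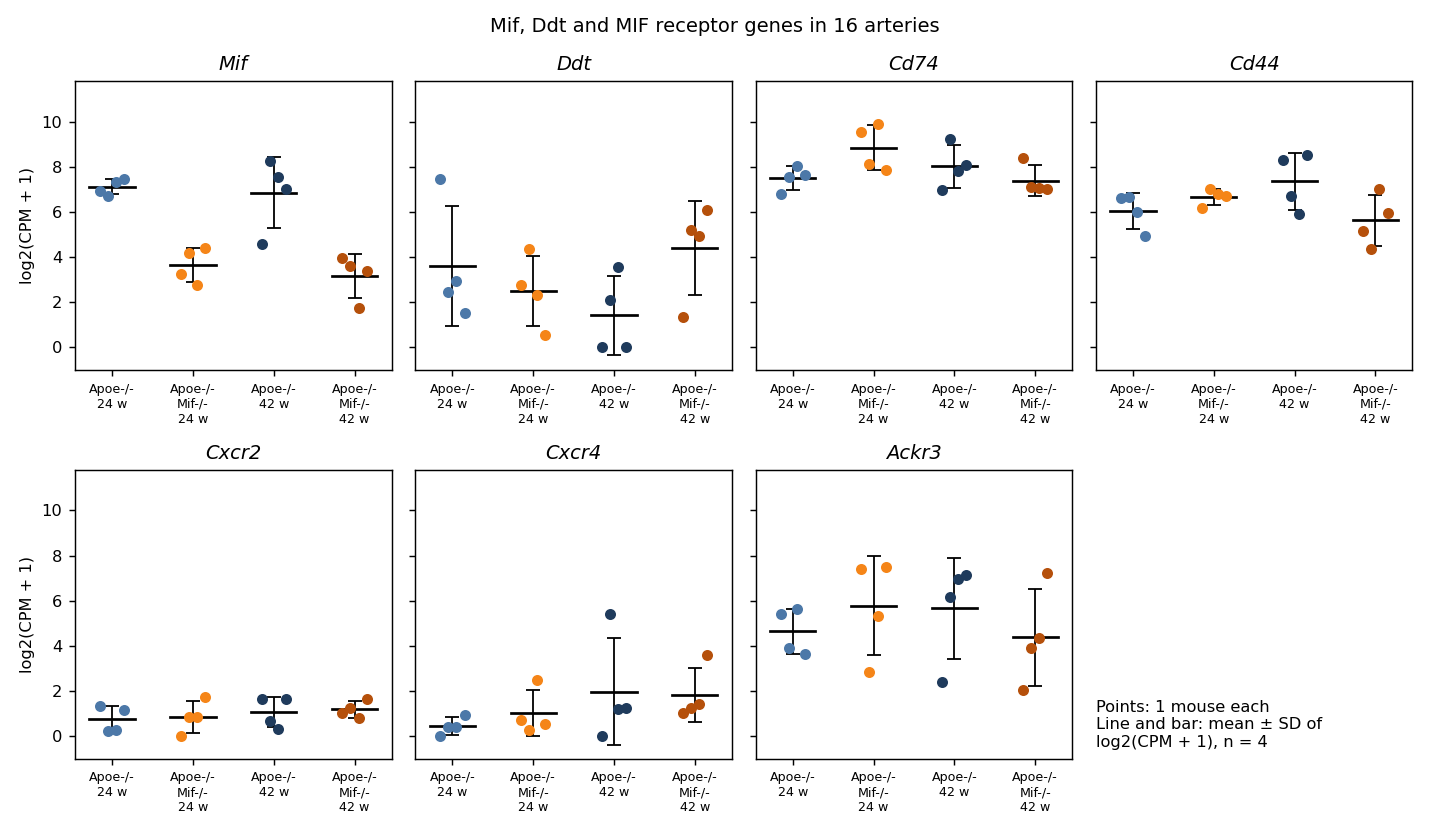
Level of each of the 7 genes in each library on a log2(CPM + 1) scale (vertical axis) by genotype and weeks of diet (horizontal axis), with points for single mice and line and bar for the mean ± SD (n = 4). The Mif points of the groups with and without the gene do not overlap, whereas the points of the other 6 genes do at both durations.

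Mif transcripts were about an order of magnitude less abundant in the mutant arteries, and they were not at 0 in any library. In Apoe-/- mice at 24 weeks Mif stood at 122, 105, 161 and 177 CPM in libraries 1 to 4, and in Apoe-/-Mif-/- mice at 8.51, 17, 5.88 and 19.9 CPM. At 42 weeks the values were 23.2, 301, 185 and 130 CPM with the gene and 14.4, 11.1, 2.39 and 9.46 CPM without it. Every mutant library lay below every library with Mif, so the labels and this gene point the same way in all 16.

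The gap between the genotypes was narrow at a single point. Library 1 of the Apoe-/- mice at 42 weeks, the shallowest of all, had 11 Mif counts, or 23.2 CPM with an exact Poisson 95% interval of 11.6 to 41.5. That interval overlaps the one of the highest mutant library, 14.4 to 26.8 CPM around 19.9. The next lowest Apoe-/- library stood at 105 CPM. Such intervals cover counting error only, since reads amplified without molecular identifiers are not independent molecules.

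Mean Mif was 141 ± 33.5 CPM (SD, n = 4) against 12.8 ± 6.69 at 24 weeks, 11-fold lower in the mutant, and 160 ± 116 against 9.35 ± 5.06 at 42 weeks, 17.1-fold lower. Averaged over both durations the difference in mean log2(CPM + 1) was -3.58 in a two-sided exact permutation test within durations (p = 0.000408, the smallest that 4900 splits can give). Within each duration the differences were -3.47 and -3.68, each with an exact p of 0.0286, the smallest that 70 splits allow. In all, 14 such tests were made over both strata and 28 within 1 stratum.

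The test across all genes did not call Mif. For both durations together edgeR gave a log2 fold change of -3.78 ± 0.85 (SE) with an adjusted p of 0.109, although its unadjusted p ranked 6th of 10634. At 24 weeks the log2 fold change was -3.46 ± 1.18 (edgeR adjusted p = 0.341) and at 42 weeks -4.11 ± 1.22 (edgeR adjusted p = 0.176). DESeq2 on the same counts called Mif in these comparisons, with adjusted p of 0.014 at 24 weeks, 0.00478 at 42 weeks and 2.18e-05 over both. Over all alternatives, the adjusted p of the averaged difference ran from 2.18e-05 to 0.785, and the direction was lower in each.

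Groups that do not overlap were rare over both durations and less so within 1. All 8 mutant libraries lay below all 8 others for 0.0282% of the 10634 genes, which is 3 genes, and above them for 0%. Within 24 weeks 2.29% of genes were lower and 1.55% higher in every mutant library, and within 42 weeks 1.03% and 1.17%. Between the durations all 7 genes overlapped in both genotypes, where 3.09% of genes were lower and 1.06% higher in every library at 42 weeks in Apoe-/- mice, and 3.03% and 1.35% in Apoe-/-Mif-/- mice. The other two were Cox10, needed to make the haem of cytochrome c oxidase, at 0.41 to 8.36 CPM without Mif and 9.46 to 258 with it, and Dtx4, a Deltex-family ubiquitin ligase, at 2.78 to 18.1 and 24.9 to 409 CPM. Both were picked out after their values were seen. Neither passed the edgeR test for both durations, with a log2 fold change of -4.44 ± 1.10 (adjusted p = 0.121) for Cox10 and -3.30 ± 0.89 (adjusted p = 0.126) for Dtx4.

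The counts left in the mutant were few, 168 over the 4 libraries at 24 weeks and 68 over those at 42 weeks, against 2908 and 1930 in the Apoe-/- groups. Counts per gene do not show where in Mif these reads lay. The 9 Mif pseudogene rows held 247 counts at 24 weeks in the Apoe-/- group and 58 in the Apoe-/-Mif-/- group, and 8 and 2 at 42 weeks. Almost all of the first 2 sums came from 1 row in 1 library each: 238 counts of Mif-ps9 in library 1 of the Apoe-/- mice and 58 of Mif-ps10 in library 3 of the Apoe-/-Mif-/- mice. How reads were shared between Mif and these copies is not given in the sources used here.

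Time on diet was not accompanied by a detectable change in Mif. Between 24 and 42 weeks the edgeR log2 difference was 0.18 ± 1.07 (SE) in Apoe-/- mice (adjusted p = 0.966) and -0.47 ± 1.09 in Apoe-/-Mif-/- mice (adjusted p = 0.895). Over both genotypes the exact permutation test gave -0.37 on the log2(CPM + 1) scale (p = 0.484). The interaction, which asks whether the effect of the deletion differed between durations, was -0.65 ± 1.52 for Mif (edgeR adjusted p = 0.897).

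Ddt, whose product is the second ligand of CD74 in this family, was low in most arteries and high in a few. In Apoe-/- mice at 24 weeks it stood at 177, 4.56, 6.64 and 1.88 CPM, and in Apoe-/-Mif-/- mice at 5.89, 19.3, 4.06 and 0.463 CPM. At 42 weeks the values were 0, 3.25, 10.9 and 0 CPM in Apoe-/- and 1.54, 36.2, 29.5 and 66.7 CPM in Apoe-/-Mif-/- mice. The groups overlapped at both durations, at 42 weeks only through library 1 of the mutant mice, and the 2 libraries at 0 allow up to 6.32 and 2.09 CPM by the limit of 3 counts.

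A single library set the direction of the Ddt difference at 24 weeks. Library 1 of the Apoe-/- mice held 351 of the 929 Ddt counts and 48.2% of the summed CPM of all 16 libraries. With it, the means were 47.6 ± 86.5 and 7.42 ± 8.22 CPM and the edgeR log2 fold change -2.66 ± 1.67 (SE, adjusted p = 0.83). Without it, the log2 fold change was 0.76. The same library had the highest white adipocyte, brown adipocyte and skeletal muscle marker sums of all, 6649, 13611 and 5015 CPM.

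At 42 weeks mean Ddt was 3.54 ± 5.15 CPM with Mif and 33.5 ± 26.7 CPM without it, 9.45-fold higher, a difference that no test passed. The edgeR log2 fold change was 3.13 ± 1.71 (SE, adjusted p = 0.339), and the exact permutation test gave 2.98 on the log2(CPM + 1) scale (p = 0.0857). White adipocyte markers summed to 3558, 5664, 21.6 and 1272 CPM in the 4 mutant libraries and brown adipocyte markers to 215, 4529, 26.1 and 1996 CPM. The arteries with 36.2 and 66.7 CPM of Ddt had the 2 highest brown adipocyte sums of the group, and the artery with 29.5 CPM the lowest sum of both lists.

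Over all 16 libraries Ddt had a Pearson r of 0.509 with the brown adipocyte score (permutation p = 0.044, adjusted 0.586 over the 80 relations between genes and marker scores) and a Spearman rho of 0.231 (permutation p = 0.385, adjusted 0.937). With the white adipocyte score r was 0.407 (permutation p = 0.119, adjusted 0.862) and rho 0.333 (permutation p = 0.208, adjusted 0.937). With the skeletal muscle score r was 0.304 (permutation p = 0.25, adjusted 0.925) and rho 0.0397 (permutation p = 0.885, adjusted 0.977). Without the 2 libraries farthest from the median r was 0.463, 0.246 and 0.006, and within plate row B it was 0.521, 0.439 and 0.329. Larger in size was r with the endothelial score, 0.537 (permutation p = 0.0322, adjusted 0.586), with rho 0.449 (permutation p = 0.0827, adjusted 0.937). With the smooth muscle score r was -0.517 (permutation p = 0.04, adjusted 0.586) and rho -0.415 (permutation p = 0.111, adjusted 0.937). For these 2 scores r was 0.504 and -0.219 without the 2 farthest libraries, and 0.538 and -0.472 within row B. None of these relations of Ddt passed after adjustment.

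The Ddt interaction was 5.79 ± 2.40 on the log2 scale (SE, edgeR adjusted p = 0.253), and DESeq2 called it at 6.77 (adjusted p = 0.0429). Without library 1 of the Apoe-/- mice at 24 weeks the edgeR interaction was 2.35. In Apoe-/- mice Ddt was 13.4-fold lower on average after 42 than after 24 weeks (log2 -3.64 ± 1.75 SE, edgeR adjusted p = 0.394), and without that library the log2 difference was -0.21. In Apoe-/-Mif-/- mice it was 2.16 ± 1.64 (edgeR adjusted p = 0.594).

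The balance of the 2 ligands is given per library. Per Mif CPM, Ddt stood at 0, 0.0108, 0.059 and 0 in Apoe-/- libraries at 42 weeks and at 0.107, 3.25, 12.3 and 7.05 in the mutant ones. At 24 weeks the ratios were 1.45, 0.0435, 0.0413 and 0.0106 with Mif and 0.692, 1.13, 0.69 and 0.0233 without it. The ratio contains Mif, which the mutation itself lowers, and the mutant libraries at 42 weeks held 8 to 28 Mif counts, so no comparison of it is made.

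**Figure D2:**
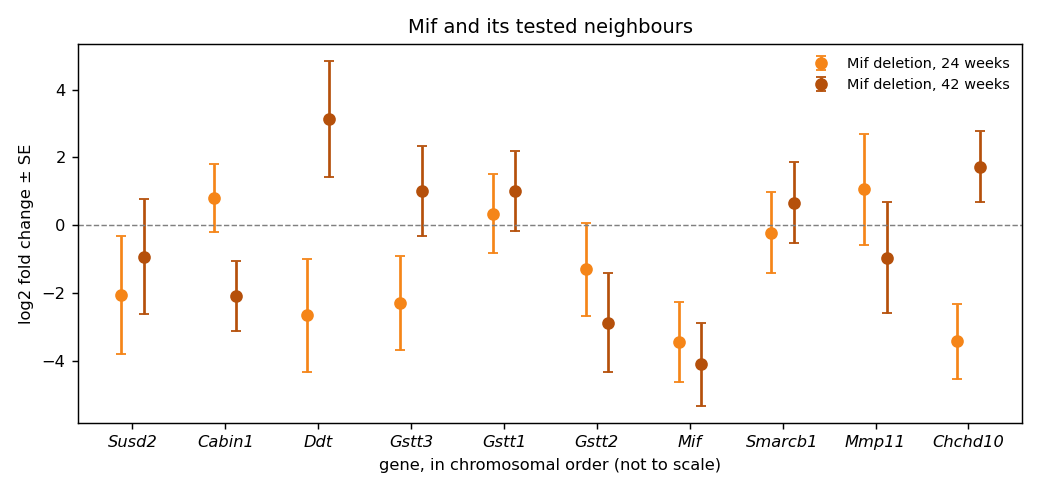
Fitted log2 fold change ± SE of the Mif deletion at 24 weeks (light) and 42 weeks (dark) for Mif and the 9 neighbouring genes that passed the count filter, in chromosomal order. Mif, Gstt2 and Susd2 lie below 0 at both durations. Ddt, Gstt3, Smarcb1 and Chchd10 lie below 0 at 24 weeks and above it at 42 weeks.

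Ddt is also a close neighbour of Mif on chromosome 10, the fifth gene on one side in the RefSeq annotation of GRCm38.p6. Of the 10 nearest genes on each side, 16 of 20 were in the count table and 9 were tested. None passed for the deletion at 24 weeks, where 3 were higher and 6 lower with a median log2 fold change of -1.31 (-0.18 over all genes tested), or at 42 weeks, where 5 were higher and 4 lower with a median of 0.66 (0.09 over all). In the averaged comparison 4 were higher and 5 lower (median -0.65, all genes -0.06).

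The 3 neighbours with the highest mean CPM varied widely between libraries. Chchd10, which encodes a mitochondrial protein of the intermembrane space, stood at 2186, 23.3, 62.8 and 587 CPM in Apoe-/- and 37.3, 60.1, 85.6 and 82.3 CPM in Apoe-/-Mif-/- mice at 24 weeks (log2 -3.43 ± 1.11 SE, edgeR adjusted p = 0.295). At 42 weeks it stood at 23.2, 28.4, 187 and 386 against 531, 1169, 32.6 and 348 CPM, and its interaction was 5.16 ± 1.52 (edgeR adjusted p = 0.0954). The highest Chchd10 value came from the same library as the highest Ddt value. Cabin1, which encodes a calcineurin-binding protein, ran from 18.1 to 860 CPM over the 16 libraries, and Gstt1, a glutathione transferase, from 8.43 to 492 CPM.

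Gstt3, the gene beside Ddt, was named after its values were seen. It stood at 51.5 to 84 CPM in Apoe-/- and 1.85 to 23.5 CPM in Apoe-/-Mif-/- mice at 24 weeks, and at 2.11 to 25.7 and 4.62 to 54.1 CPM at 42 weeks. Its groups overlapped at 42 weeks and not at 24 weeks, when 2.29% of all genes were lower in every mutant library. For the deletion at 24 weeks edgeR did not call it (log2 -2.31 ± 1.39 SE, adjusted p = 0.807).

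Among the receptors Cd74 was the most abundant, and its levels crossed between the durations. In Apoe-/- mice at 24 weeks it stood at 110, 184, 261 and 197 CPM, and in Apoe-/-Mif-/- mice at 749, 274, 941 and 233 CPM. At 42 weeks the values were 124, 606, 223 and 269 CPM with Mif and 336, 135, 132 and 129 CPM without it. At 24 weeks 3 of 4 mutant libraries exceeded every Apoe-/- library, and at 42 weeks 3 of 4 lay below all but 1 of them, so the groups overlapped at both.

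Mean Cd74 was 2.92-fold higher without Mif at 24 weeks (188 ± 62.2 against 549 ± 351 CPM) and 1.67-fold lower at 42 weeks (306 ± 209 against 183 ± 102 CPM). The edgeR log2 fold changes were 1.55 ± 0.80 (SE, adjusted p = 0.718) and -0.74 ± 0.79 (adjusted p = 0.654), and the interaction was -2.29 ± 1.12 (adjusted p = 0.347). The exact permutation tests gave 1.35 on the log2(CPM + 1) scale at 24 weeks (p = 0.0571) and -0.63 at 42 weeks (p = 0.371). In Apoe-/-Mif-/- mice Cd74 was 3-fold lower after 42 than after 24 weeks (log2 -1.58 ± 0.80 SE, edgeR adjusted p = 0.396), and in Apoe-/- mice 1.63-fold higher (log2 0.70 ± 0.79, edgeR adjusted p = 0.764). No comparison of Cd74 passed.

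**Figure D3:**
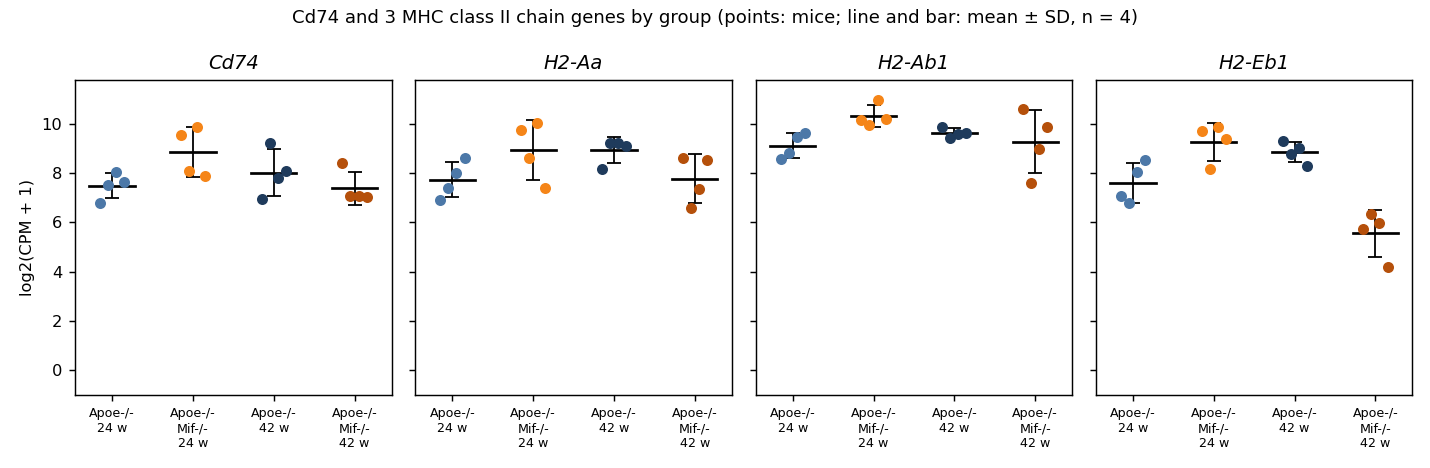
Levels of Cd74 and 3 MHC class II chain genes in each library on a log2(CPM + 1) scale (vertical axis) by genotype and weeks of diet (horizontal axis), with points for single mice and line and bar for the mean ± SD (n = 4). The 4 H2-Eb1 points of Apoe-/-Mif-/- mice at 42 weeks, 17.2 to 80.8 CPM, lie below all others. Within 42 weeks, 1.03% of all genes were lower in every mutant library.

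CD74 takes its other name, invariant chain, from the MHC class II molecules it escorts. Of those partners, 1 passed the interaction of deletion and duration, though not in every alternative. The list held 8 genes of class II presentation and CD74 processing, all tested. H2-Eb1, a class II beta chain, passed the interaction with a log2 value of -4.82 ± 1.11 (SE, edgeR adjusted p = 0.0388), and none of the other 7 passed in any of the 6 comparisons. Over all genes, 0.686% passed the interaction.

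H2-Eb1 stood at 134, 110, 261 and 366 CPM in Apoe-/- and 838, 288, 933 and 662 CPM in Apoe-/-Mif-/- mice at 24 weeks. At 42 weeks it stood at 632, 444, 514 and 317 CPM with Mif and 52.4, 80.8, 61.3 and 17.2 CPM without it. The groups did not overlap at 42 weeks, where 1.03% of all genes were lower in every mutant library. At 24 weeks 1 mutant library lay below the highest Apoe-/- one. The deletion effects themselves did not pass, at 1.64 ± 0.77 at 24 weeks (edgeR adjusted p = 0.65) and -3.17 ± 0.81 at 42 weeks (edgeR adjusted p = 0.176). The interaction call ended without any 1 of 10 libraries, with adjusted p up to 0.0726: all 4 Apoe-/-Mif-/- libraries at 24 weeks, all 4 Apoe-/- libraries at 42 weeks, library 1 of the Apoe-/- mice at 24 weeks and library 4 of the Apoe-/-Mif-/- mice at 42 weeks. It also ended with DESeq2 size factors (-4.57, adjusted p = 0.0712), voom (-4.92, adjusted p = 0.587) and the deposited log2 values (-4.76, adjusted p = 0.504), and it held in DESeq2 (-4.57, adjusted p = 0.00308) and without a filter (-4.83, adjusted p = 0.0274).

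A further pair of class II chains, H2-Aa and H2-Ab1, was examined after the H2-Eb1 values were seen. H2-Aa, an alpha chain, averaged 234 ± 117 and 619 ± 411 CPM with and without Mif at 24 weeks, and 509 ± 152 and 257 ± 151 CPM at 42 weeks. H2-Ab1, the beta chain that pairs with it, averaged 583 ± 198 and 1335 ± 454 CPM, then 797 ± 108 and 805 ± 594 CPM. At 24 weeks all 4 mutant libraries of H2-Ab1 (1008 to 2007 CPM) lay above all 4 others (385 to 797 CPM), as 1.55% of all genes did. Neither gene passed in the edgeR tests, with interactions of -2.39 ± 1.08 for H2-Aa (adjusted p = 0.302) and -1.18 ± 0.90 for H2-Ab1 (adjusted p = 0.583).

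Within this list as a whole, 6 of 8 genes were higher and 2 lower without Mif at 24 weeks, with a median log2 fold change of 1.21 against -0.18 over all genes. At 42 weeks 4 were higher and 4 lower (median -0.28, all genes 0.09). Between the durations 2 were higher and 6 lower in Apoe-/-Mif-/- mice (median -0.77, all genes 0.12), and 5 were higher and 3 lower in Apoe-/- mice (median 0.47, all genes -0.12). The interaction was below 0 for 4 genes and above 0 for 4 (median -0.30, all genes 0.26). Those above 0, named after their values were seen, were H2-DMa (0.58), H2-DMb1 (0.90), Ciita (1.73) and Sppl2a (0.90).

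Cells that present antigen carry CD74, and the summed levels of their markers are given here without a test between groups. All 5 dendritic cell markers were detected in each group, and their sum was 346 to 1693 CPM in Apoe-/- mice at 42 weeks against 16.2 to 256, 46.3 to 306 and 29.7 to 304 CPM in the Apoe-/- group at 24 weeks and the Apoe-/-Mif-/- groups at 24 and 42 weeks. As a mean log2 level over the 5 markers, which weights them alike, the Apoe-/- libraries at 42 weeks (2.84, 2.15, 4.50 and 3.09) overlapped the others. The 8 macrophage markers summed to 1027 to 6424 and 3193 to 8487 CPM at 24 weeks with and without Mif, and to 6007 to 14728 and 2816 to 8124 CPM at 42 weeks. The 6 B cell markers summed to at most 95.9 CPM in any library, and Ms4a1 was at 0 in both 24-week groups. Apart from these cell types, the 4 cardiac muscle markers summed to 829 to 3041 CPM in the Apoe-/-Mif-/- group at 24 weeks. They summed to 88 to 304 CPM in the Apoe-/- group of that duration. At 42 weeks they summed to 174 to 744 CPM without Mif and 78.5 to 295 CPM with it. The Apoe-/-Mif-/- group at 24 weeks is all of plate row C, so row and group cannot be told apart there. In bulk samples fewer cells of a type and less RNA per cell cannot be told apart.

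Of the 80 relations between the genes that passed the filter and marker scores over libraries, none passed after adjustment. The 1 with the smallest unadjusted p joined Cd74 and 6 smooth muscle markers over 16 libraries, with Pearson r of 0.568 (permutation p = 0.022, adjusted 0.586) and Spearman rho of 0.659 (permutation p = 0.00706, adjusted 0.515). Without the 2 libraries farthest from the median r was 0.512, and within plate row B it was 0.787 over 12 libraries. Row C held too few libraries for a value of its own. Cd74 gave r of 0.288 with the macrophage score (permutation p = 0.278, adjusted 0.953), 0.123 with the dendritic cell score (permutation p = 0.647, adjusted 0.953), -0.314 with the B cell score (permutation p = 0.236, adjusted 0.925) and 0.236 with the cardiac muscle score (permutation p = 0.379, adjusted 0.953). The rho values were 0.259, 0.159, -0.274 and 0.285 (permutation p = 0.333, 0.557, 0.306 and 0.283, each adjusted 0.937). Without the 2 farthest libraries r was 0.0705, 0.0325, -0.224 and 0.314, and within row B it was 0.315, 0.123, -0.308 and -0.359.

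Cd44, the hyaluronan receptor that forms the signalling complex with CD74, had no group that stood apart from the others. It stood at 96.5, 99.8, 62.5 and 29.4 CPM in Apoe-/- and 70.7, 127, 109 and 105 CPM in Apoe-/-Mif-/- mice at 24 weeks. At 42 weeks it stood at 316, 105, 58.2 and 366 CPM with Mif and 34.9, 19.5, 128 and 61.9 CPM without it. The groups overlapped at both durations, and the 2 highest of all libraries were Apoe-/- mice at 42 weeks.

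Mean Cd44 was 1.43-fold higher without Mif at 24 weeks and 3.45-fold lower at 42 weeks, within the spread of the mice in both cases. The edgeR log2 fold changes were 0.51 ± 1.00 (SE, adjusted p = 0.973) and -1.78 ± 1.03 (adjusted p = 0.362). In Apoe-/- mice Cd44 was 2.93-fold higher after 42 than after 24 weeks (log2 1.55 ± 1.02, edgeR adjusted p = 0.568), and in Apoe-/-Mif-/- mice 1.68-fold lower (log2 -0.74 ± 1.00, edgeR adjusted p = 0.791). The interaction was -2.29 ± 1.43 (edgeR adjusted p = 0.482), and the exact permutation test of the deletion over both durations gave -0.56 (p = 0.339).

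Genes for CD44 ligands, for hyaluronan enzymes and for proteins that shed CD44 or link it to the cytoskeleton were listed too. Of 11 listed genes 9 were tested in the 6 comparisons, and none of those passed. The hyaluronan synthase genes Has2 and Has3 did not reach the filter. The 3 genes given with values had the highest mean CPM, which is not corrected for length. Spp1, which encodes the CD44 ligand osteopontin, averaged 16724 CPM, with group means of 16624 ± 14883 and 18880 ± 9541 CPM at 24 weeks and 13932 ± 3850 and 17459 ± 4958 CPM at 42 weeks, in Apoe-/- and Apoe-/-Mif-/- mice. Mmp14, a membrane metalloproteinase that sheds CD44, averaged 239 CPM and Msn, which encodes the cytoskeletal linker moesin, 171 CPM. With the deletion 6 genes of the list were higher and 3 lower at each duration, with medians of 0.44 and 0.33. Over all genes the medians were -0.18 and 0.09, with 45.1% and 51.8% higher.

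Cxcr2, the chemokine receptor of neutrophils and some monocytes, was barely detected. It had 0 to 5 counts in each library and 41 in all, at 1.52, 0.169, 0.218 and 1.25 CPM in Apoe-/- and 0, 0.82, 0.812 and 2.31 CPM in Apoe-/-Mif-/- mice at 24 weeks. At 42 weeks it stood at 2.11, 0.591, 0.26 and 2.09 CPM with Mif and 1.03, 1.39, 0.718 and 2.15 CPM without it. No library of either genotype exceeded 2.31 CPM, and the groups overlapped in full. The exact permutation test of the deletion gave 0.11 on the log2(CPM + 1) scale (p = 0.698), and that of the duration 0.32 (p = 0.289). A difference in Cxcr2 was not detectable at this depth. The 6 neutrophil markers summed to 0 to 41.2 CPM, with Ly6g and Mmp8 at 0 in the Apoe-/-Mif-/- group at 24 weeks and the Apoe-/- group at 42 weeks.

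Cxcr4, the receptor of CXCL12 on leukocytes and endothelium, was low in 13 libraries and rested mainly on 1. In Apoe-/- mice it stood at 0, 0.338, 0.327 and 0.938 CPM at 24 weeks and at 0, 41.1, 1.3 and 1.4 CPM at 42 weeks. In Apoe-/-Mif-/- mice it stood at 0.655, 0.205, 4.67 and 0.463 CPM at 24 weeks and at 1.03, 1.39, 1.68 and 11.2 CPM at 42 weeks. Library 2 of the Apoe-/- mice at 42 weeks held 139 of 216 counts, 61.6% of the summed CPM, and library 3 of the younger and library 4 of the older mutant mice held 23 and 26.

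The library with high Cxcr4 had the highest summed CPM of all in macrophage, dendritic cell, endothelial and erythroid markers, at 14728, 1693, 3781 and 20088 CPM. As mean log2 levels, which weight each marker alike, it was highest of all in erythroid markers (11.12) but not in macrophage (8.31), dendritic cell (2.15) or endothelial markers (6.80). Their part in the Cxcr4 level was not tested. Over both durations the exact permutation test of the deletion gave 0.21 on the log2(CPM + 1) scale (p = 0.778), and that of the duration over both genotypes 1.17 (p = 0.104). The duration difference was 1.52 in Apoe-/- (exact p = 0.257) and 0.81 in Apoe-/-Mif-/- mice (exact p = 0.4). With DESeq2 size factors it was 1.32 over both genotypes (exact permutation p = 0.0363). With TMM scaling it was 1.42 without library 3 of the Apoe-/-Mif-/- mice at 24 weeks (exact p = 0.0196) and 1.49 without library 1 of the Apoe-/- mice at 42 weeks (exact p = 0.0282).

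Ackr3, formerly called CXCR7, an atypical receptor that scavenges CXCL12 and also binds MIF, varied widely within the groups. It stood at 40.9, 13.8, 47.8 and 11.6 CPM in Apoe-/- and 170, 6.15, 39.4 and 180 CPM in Apoe-/-Mif-/- mice at 24 weeks. At 42 weeks it stood at 4.22, 70.3, 125 and 141 CPM with Mif and 3.08, 13.9, 19.6 and 148 CPM without it. High and low libraries occurred in every group but the Apoe-/- mice at 24 weeks, and all groups overlapped.

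Mean Ackr3 was 3.46-fold higher without Mif at 24 weeks (28.5 ± 18.5 against 98.8 ± 88.9 CPM) and 1.85-fold lower at 42 weeks (85 ± 61.8 against 46 ± 68 CPM). The edgeR log2 fold changes were 1.79 ± 1.31 (SE, adjusted p = 0.874) and -0.89 ± 1.28 (adjusted p = 0.755), and the interaction was -2.67 ± 1.82 (adjusted p = 0.533). After 42 against 24 weeks the log2 difference was 1.58 ± 1.30 in Apoe-/- mice (edgeR adjusted p = 0.667) and -1.10 ± 1.28 in Apoe-/-Mif-/- mice (edgeR adjusted p = 0.75). Over both durations the exact permutation test of the deletion gave -0.08 (p = 0.942).

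**Figure D4:**
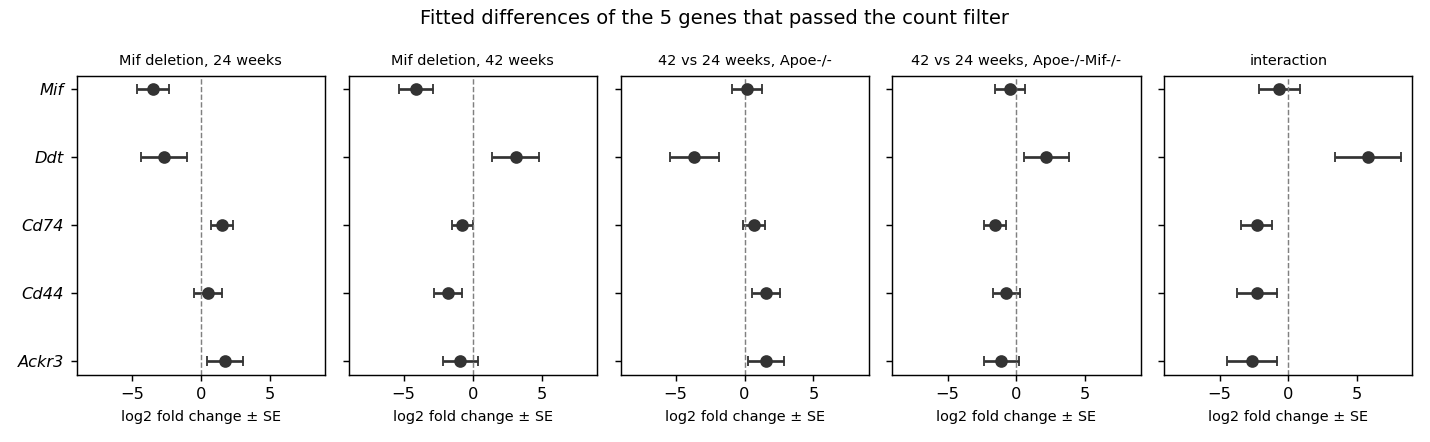
Fitted edgeR log2 fold change ± SE (horizontal axis) of the 5 genes that passed the count filter (vertical axis) in 4 comparisons of 2 groups and the interaction. Mif lies below 0 for the deletion at both durations, and the other 4 genes lie on opposite sides of 0 at 24 and 42 weeks.

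Set side by side, no gene of the 5 tested passed edgeR in any of the 6 comparisons. The share of all genes that passed was 0.047% for the deletion at 24 weeks, 0% at 42 weeks and 0% for both durations, 0% for the duration in Apoe-/- and 0.122% in Apoe-/-Mif-/- mice. At an unadjusted p under 0.05 Mif alone stood out of the 5 for the deletion at 24 weeks, at 42 weeks and over both (all genes 7.33%, 17.3% and 13%), Ddt for the duration in Apoe-/- mice (12.2%), none in Apoe-/-Mif-/- mice (13.1%), and Ddt and Cd74 for the interaction (14.2%). DESeq2 called Mif in the 3 deletion comparisons, where it called 2.37%, 7.51% and 2.95% of genes, and Ddt for the interaction, where it called 4.84%. It called none of the 5 for the duration in either genotype (3.36% and 5.06% of genes).

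Ddt, Cd74, Cd44 and Ackr3 had deletion effects of opposite sign at 24 and 42 weeks, Ddt from lower to higher and the 3 receptors from higher to lower. The fitted effects at the 2 durations, which share no library, also had opposite signs for 51.2% of all 10634 genes tested. None of these interactions passed edgeR, and the sign of Ddt at 24 weeks turned without 1 library.

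Other ligands of the MIF receptors were mostly below the filter. Of 7 chemokine genes 2 were tested and neither passed. Cxcl12, the ligand of CXCR4 and ACKR3, averaged 285 ± 187 and 231 ± 102 CPM at 24 weeks and 202 ± 194 and 176 ± 111 CPM at 42 weeks in Apoe-/- and Apoe-/-Mif-/- mice, with log2 fold changes for the deletion of -0.30 ± 0.90 (SE, edgeR adjusted p = 0.983) and -0.20 ± 0.90 (adjusted p = 0.935). Cxcl1, a neutrophil chemokine that binds CXCR2, averaged 24.6 CPM over all libraries. Of 12 other chemokine receptor and decoy receptor genes 2 were tested and neither passed. Cx3cr1, the fractalkine receptor, averaged 5.29 CPM, and Ccr2 and Ackr1, which did not reach the filter, averaged 6.4 and 5.78 CPM.

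Genes that carry the signal inside the cell were present and did not pass either. All 11 signal transducers placed downstream of MIF receptors were tested. Without Mif 7 were higher and 4 lower at 24 weeks (median log2 0.08, all genes -0.18). At 42 weeks 3 were higher and 8 lower (median -0.35, all genes 0.09). Those with the highest mean CPM were Gnai2, the inhibitory G protein subunit of chemokine receptors (555 CPM), Mapk3, which encodes the kinase ERK1 (280 CPM), and Akt1 (206 CPM). At 42 weeks Gnai2 averaged 824 ± 596 CPM in Apoe-/- and 316 ± 81.4 CPM in Apoe-/-Mif-/- mice (log2 -1.38 ± 0.70 SE, edgeR adjusted p = 0.3).

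All 4 intracellular binding partners of MIF had fitted differences above 0 at both durations with TMM scaling, and none passed. Their medians were 0.42 and 0.36, against -0.18 and 0.09 over all genes, of which 45.1% and 51.8% lay above 0. Rps19, a ribosomal protein that binds MIF, averaged 967 ± 252 and 1258 ± 473 CPM at 24 weeks and 1535 ± 454 and 1762 ± 719 CPM at 42 weeks (edgeR adjusted p = 0.966 and 0.891). Prdx1, a peroxiredoxin, averaged 755 CPM and Trp53, the tumour suppressor p53, 61.3 CPM.

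The genes whose levels ranked the libraries most like each of the 5 genes are given as a description, since all points share library depth and tissue makeup. Over the 8 Apoe-/- libraries Mif was most like Adipor1, an adiponectin receptor, Eny2, Slfn2 and Wbp1l (Spearman rho 0.952 each) and Cipc (0.929) among 5059 genes. Over 16 libraries and 7385 genes Ddt was most like Higd1a (0.893), BC003965 and Mrpl48 (0.858 each), Vdac1 (0.848) and Herpud2 (0.839). Of these, Higd1a, Mrpl48 and Vdac1 encode mitochondrial proteins. The share of such genes among all those ranked was not counted, and no chance level was set for any of these rho values.

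Cd74 was most like Vsir, which encodes the immune checkpoint protein VISTA (0.871), Galnt1 (0.859), Scx, a tendon transcription factor (0.85), Lgals1, which encodes galectin-1 (0.821), and Usp24 (0.815). Cd44 was most like Dvl1 (0.847), Psenen, a subunit of gamma-secretase (0.841), Arl6ip4 and Milr1 (0.815 each) and Coro1b (0.803). Ackr3 was most like Slc35b2 (0.876), Fkbp10, a chaperone of collagen (0.806), Hspg2, which encodes perlecan (0.8), Sdc4, which encodes syndecan-4 (0.797), and Cyth3 (0.768). None of the class II genes was among the 5 genes most like Cd74.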

How the data were processed

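Polyadenylated RNA (1 ng) from pooled artery sections was amplified by Smart-seq2, a method without molecular identifiers or strand, and sequenced as 100-base read pairs. Per the submitters' processing notes, reads were treated with cutadapt 1.18, Trim Galore 0.6.4 and FastQC 0.11.5 and aligned with STAR 2.5.2b, with GRCm39 as the build. The program used for counting, and its annotation, are not given in the sources used here. Coordinates are left out. The authors' deposited counts were whole numbers, 1 row per symbol (55359 rows). A row with a blank name (at most 0.00257% of a library) and 2 reporter rows were left out. The authors also deposited variance-stabilised values on a log2 scale for 9578 genes, used as an alternative input.

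Counts were tested in 1 fit of 4 groups with edgeR 4.0.16 in R 4.3.3 (quasi-likelihood test, TMM scaling, filterByExpr at a minimum count of 10 and total of 15, 12 residual degrees of freedom, adjusted p under 0.05 over 10634 genes). CPM were computed from counts and scaled totals. Exact permutation tests used log2(CPM + 1). DESeq2 1.42.0, limma 3.58.1, other scalings, filters and pseudocounts, and leaving out each library were alternatives. The fit was also run on simulated data with set changes, and its recovery of them is not reported here. Sequences were aligned with Biopython 1.88 (Python 3.11.15). GRCm38 references served only for sequences, lengths, names and gene order.

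Named were the 7 genes, from each further list the genes that passed or otherwise up to 3 with the highest mean CPM, the Mif pseudogenes as a sum, and for each gene with 10 or more counts in 8 or more libraries the 5 genes most like it. Genes and lists were chosen with earlier results of these data known. A gene that the naming rule gives is not reported here.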

Additional observations from a re-analysis of the deposited data

Results flagged for a closer look

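In 2 of 28 groups of 4 libraries (7 genes in 4 groups), 1 library stood far from the other 3 by the gap to its neighbour divided by the group's range on the log2(CPM + 1) scale, past Dixon's critical value for 4 samples. Chance alone puts about 1 in 20 such groups past it. Cd74 in Apoe-/-Mif-/- mice at 42 weeks had a ratio of 0.952, because library 1 stood at 336 CPM and the other 3 at 129 to 135 CPM. Library 1 of that group also had the highest smooth muscle marker sum of all 16, 16939 CPM. Cxcr4 in the same group had a ratio of 0.845, because library 4 stood at 11.2 CPM (26 counts) and the others at 1.03 to 1.68 CPM (1 to 7 counts).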

How the results depend on the processing

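No paired analysis was possible because the labels give no replicate numbers and each mouse belongs to 1 group. The lower Mif level of the mutant kept its direction in every alternative tried, and its permutation difference ran from -3.95 to -3.34 when single libraries were left out. Adding the Mif pseudogene counts to Mif, an alternative chosen after seeing the data, gave -3.49 (exact permutation p = 0.000408, the smallest possible). Alternatives that kept all libraries, with edgeR, DESeq2 or limma, gave 206 fitted values of the 5 genes and H2-Eb1. Of these, 4 turned direction, 5 newly passed and 3 no longer passed. The values that newly passed came from DESeq2, except that of Mif over both durations in edgeR without a filter. The cause of such changes was not tested. Cxcr2 had at most 5 counts in any library, and Cxcr4 at most 26 in all but 1.

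The numbers of genes that passed moved with the tool. For the deletion at 24 weeks 5 genes passed, against 264 with DESeq2, 117 without a filter, 1 with at least 20 counts in 4 libraries, and 0 with DESeq2 size factors, voom, the deposited log2 values or only the 2 groups (0 to 21 with a library left out). At 42 weeks 0 passed, against 727 with DESeq2, 150 without a filter and 25 with only the 2 groups (0 to 1 with a library left out). For both durations 0 passed, against 304 with DESeq2 and 141 without a filter (0 to 1). For the duration in Apoe-/- mice 0 passed, against 346 with DESeq2 and 18 without a filter. In Apoe-/-Mif-/- mice 13 passed, against 535 with DESeq2, 419 without a filter, 22 with DESeq2 size factors, 2 with the deposited log2 values and 0 with voom (0 to 36). For the interaction 73 passed, against 498 with DESeq2, 426 without a filter and 0 with voom or the deposited log2 values (0 to 124).

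DESeq2 size factors moved the median log2 difference of all genes from 0.12 to 0.54 for the duration in Apoe-/-Mif-/- mice, from -0.12 to 0.16 for that in Apoe-/- mice, from 0.09 to 0.28 for the deletion at 42 weeks, from -0.06 to 0.07 for both durations and from 0.26 to 0.37 for the interaction. With them the duration difference of Mif in the mutant was 0.11 in edgeR, and it was 0.09 in DESeq2 and 0.01 from the deposited values. They also turned the permutation differences for duration to 0.02 for Mif, 0.09 for Ddt and 0.18 for Ackr3 and for deletion to 0.06 for Ackr3, and gave 1.32 for the duration in Cxcr4. A pseudocount of 5 CPM gave 0.03 for the duration in Ddt and -0.03 for the deletion in Cxcr4, and total counts gave -0.19 for the duration in Cd44. Voom gave -0.48 for the averaged deletion in Ackr3. DESeq2 gave log2 fold changes of -3.31, -3.56 and -3.43 for Mif at 24 weeks, at 42 weeks and over both, and edgeR without a filter gave -3.69 over both (adjusted p = 0.0394).

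All libraries at 42 weeks and all Apoe-/- libraries lay in plate row B. Keeping to row B, chosen after seeing the data, therefore gave the permutation differences within a single stratum again. The deletion at 42 weeks gave -0.63 for Cd74 and -0.14 for Cxcr4, and the duration in Apoe-/- mice gave 0.53 for Cd74 and 1.03 for Ackr3. These have the opposite sign to the values over all 16 libraries, which average both strata. They compare no rows, so dependence on plate row was not tested.

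With a library left out, permutation differences for duration ran from -0.6 to 0.01 for Mif, -0.51 to 0.5 for Ddt, -0.09 to 0.39 for Cd44, 0.59 to 1.49 for Cxcr4 (exact p = 0.0196 without library 3 of the Apoe-/-Mif-/- mice at 24 weeks and 0.0282 without library 1 of the Apoe-/- mice at 42 weeks) and -0.67 to 0.37 for Ackr3. For deletion they ran from -0.03 to 0.25 for Cxcr2, -0.11 to 0.79 for Cxcr4 and -0.62 to 0.41 for Ackr3. The edgeR values ran from -3.87 to 0.76 for Ddt at 24 weeks, -0.33 to 1.94 for Ddt over both durations, -0.54 to 0.7 for Ackr3 over both, -0.26 to 0.61 and -0.73 to 0.01 for Mif over time in Apoe-/- and Apoe-/-Mif-/- mice, and -5.21 to -4.48 for the H2-Eb1 interaction.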
